A study of Mus musculus with 2 samples.

Results

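Ribosome biogenesis factors are the proteins that transcribe ribosomal RNA, modify and cut it, and assemble it with ribosomal proteins. The 34 genes described here were taken by name from 6 roles in this process: box C/D and box H/ACA small nucleolar ribonucleoproteins (snoRNPs), nucleolar scaffold proteins, factors of the small subunit, factors of the large subunit, and RNA polymerase I with a helicase linked to it. All 34 were found among the 18193 genes on the array, each under its current symbol, with 71 probe sets between them. The rule that names them is one of function and uses no measured value, though the set was put together with earlier results of these arrays known.

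The cells were RAW264.7, a mouse macrophage-like line, made to express murine LXRα stably after chemical transfection. LXRα, a nuclear receptor that senses oxidised sterols, works with a retinoid X receptor (RXR) partner, and the control cells carried the introduced receptor too. For 24 h they received the solvent DMSO in 1 culture condition, or the LXR agonist GW3965 at 1 µM together with the RXR agonist LG268 at 100 nM in the other. Each condition had 1 Affymetrix mouse array and no replicate, so the difference could not be tested and each ratio describes these 2 arrays alone. Neither ligand was given alone, no cells without the introduced receptor were included, and the labels do not say whether the line was 1 clone.

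Ribosome production begins in the nucleolus, where RNA polymerase I transcribes a long precursor that is cut into the mature rRNAs. Box C/D snoRNPs methylate this precursor at the ribose and box H/ACA snoRNPs turn chosen uridines into pseudouridine, each guided by a small nucleolar RNA. Separate sets of factors then mature the small (40S) and the large (60S) subunit, and MYC proteins are known as activators of many of these genes in growing cells.

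Both arrays had been scaled to a trimmed mean MAS5 signal of 2500. A floor of 276 was set at the median signal of all non-control probe sets, and a gene was measured if its brighter signal lay above it, which held for 11077 genes and for all 34 factors. Each gene was read from its brightest probe set. The probe set SD, the spread of a log2 ratio estimated from how far the 2 brightest probe sets of 4866 genes disagreed, was 0.28. It covers measurement within the arrays, not variation between cultures, and the number of arrays limited the precision. All 10 macrophage markers were measured, with summed signals of 583100 with DMSO and 634824 with the ligands. Of the markers of other cells, 1 of 8 for T and B cells, 4 of 8 for granulocytes and 0 of 10 for fibroblasts and epithelia were measured. Their summed signals were 1259 and 641 for the T and B cell list, 1076 and 1894 for the granulocyte list and 1250 and 1046 for the fibroblast and epithelial list (DMSO and ligands). The granulocyte protease Prtn3, at 240 and 923, made up most of the difference in its list, and the part of these markers in the results was not tested. Fewer cells of a type and less RNA per cell cannot be told apart in such samples.

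Setting the ligand array against the DMSO array shows which signals differed between cells given both ligands and cells given the solvent. Of the 34 factors, 33 differed by less than 1.5-fold between the arrays and 1, Nop16, was 3.19-fold higher with the ligands. No factor was at least 1.5-fold lower by its brightest probe set. A weaker probe set of Wdr43 was 1.52-fold lower and a weaker probe set of Noc4l 1.57-fold lower, each above the floor on both arrays. Among all measured genes 1.67% were 2-fold or more higher and 0.776% as much lower, while 6.36% were higher and 4.77% lower by 1.5-fold or more. Weak genes vary more, so the same was counted over the 8027 genes whose mean signal was at or above that of Polr1b, the weakest factor. Of these, 1.35% were higher and 0.274% lower by 2-fold or more, and 4.39% and 2.65% by 1.5-fold or more. The small differences leaned downward: 25 of 34 factors had a ratio below 1, against 53.8% of all measured genes and 54.6% of those at or above Polr1b. That number was 20 of 34, or 58.8%, when ratios were centred on the median of all measured genes, against 50% of those genes. The median log2 ratio of the factors was -0.10 (ligands over DMSO) and that of all measured genes was -0.03. Without Nop16 the median of the other 33 was -0.11, and their log2 ratios ran from -0.38 to 0.43. Of the 34 log2 ratios, 27 were smaller than the probe set SD of all genes, and of the 7 outside it, 5 were lower and 2 higher. Over all measured genes 18.6% were lower and 17.9% higher by more than this all-gene SD of 0.28. Over those at or above Polr1b the shares were 15.3% and 14.7%. Against the narrower SD of 0.16 from the factors' own probe sets, 17 lay outside, 15 of them lower and 2 higher. The share of all measured genes outside 0.16 is not given here, but their middle 50% ran from -0.22 to 0.19. The probe sets of Nop16 and Noc3l did not enter the SD of 0.16, because each gene had a probe set at the floor on 1 array.

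**Figure D1:**
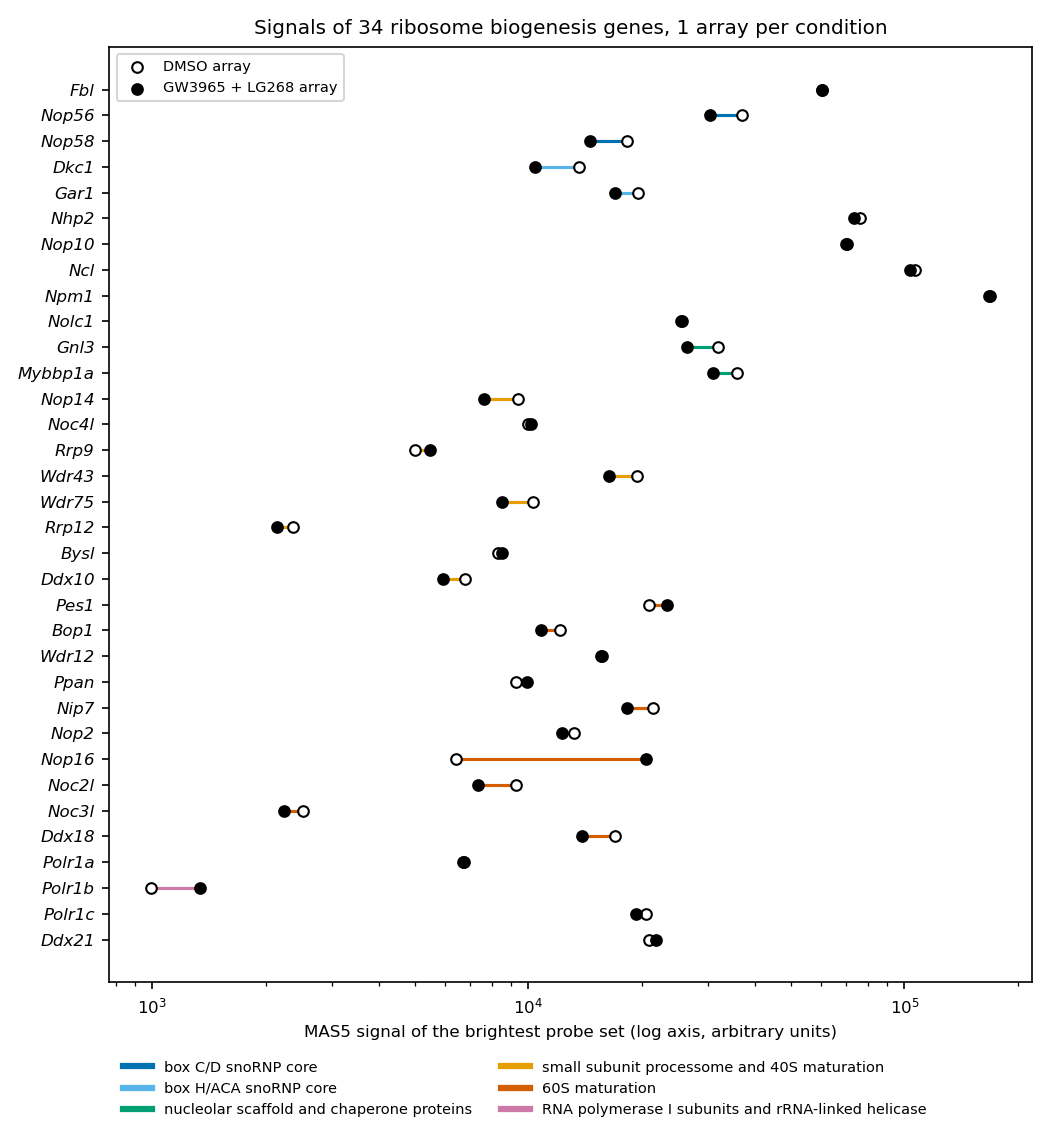
MAS5 signal on a log axis of the brightest probe set of each of the 34 genes, with 1 open point for the DMSO array, 1 filled point for the ligand array and a line coloured by role between them; points of different genes come from different probes and are not comparable in level. The pair of points for Nop16, 6424 and 20521, is the widest, and most other pairs nearly touch.

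Nop16, a nucleolar protein of large subunit maturation, stood apart from the other 33. Its brighter probe set, 1424620_at, read 6424 under DMSO and 20521 under the ligands, a log2 ratio of 1.68. Only 48 of the 11077 measured genes had a higher ratio. Its other probe set, 1451414_at, was weak and went the other way, at 449 with DMSO and 275, just under the floor, with the ligands. That is at least 1.62-fold lower. With its probe sets averaged, Nop16 had a log2 ratio of 0.49, or 1.40-fold higher, so the size of its difference depended on which probe set was read. The files do not say which transcripts each probe set detects.

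The neighbours of Nop16 on chromosome 13 gave no comparable ratio. Higd2a, the adjacent gene on one side and a factor of respiratory chain assembly, had signals of 32194 and 38805, a log2 ratio of 0.27. Arl10, adjacent on the other side, had no probe set of 1 symbol. Of the next genes, Cltb, a clathrin light chain, had 7268 and 6927 by its brightest probe set, and 4833439L19Rik had 11778 and 11553. Other probe sets of the latter reached 0.56 on the log2 scale, and at least 0.60 where the DMSO signal was under the floor, while a weak one of Cltb was at -0.81. No probe set of a neighbour came near the 1.68 of Nop16.

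**Figure D2:**
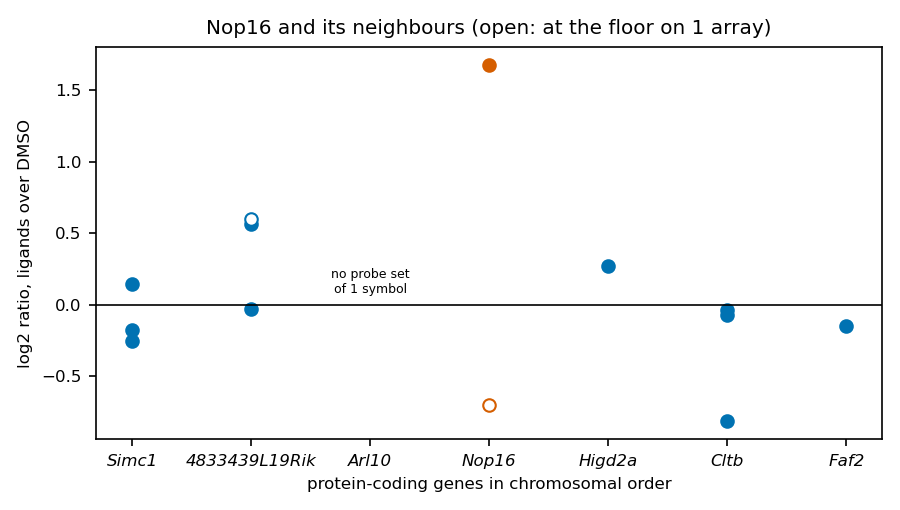
Log2 ratio of ligands over DMSO (y axis) for every measured probe set of Nop16, orange, and of the 3 protein-coding genes on either side of it, blue, in chromosomal order (x axis); open points were at the floor on 1 array. The Nop16 probe set at 1.68 lies above all points of the neighbours, the highest of which is at 0.60.

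Promoters were read for the 30 factors that RefSeq's table (build GRCm38.p6) holds, in windows of 250 bases before to 50 after each start. 5 motifs were searched on both strands, with overlapping matches counted: the E-box CACGTG bound by MYC proteins, the GC box GGGCGG, the ETS site CCGGAAGT, the ideal NRF1 site, and the ideal DR4 element, the repeat that LXR and RXR bind together. The 250 bases before the start are shown for Nop16, the gene with the highest ratio, and Dkc1, the gene with the lowest. Gar1, a partner of Dkc1 in the H/ACA particle, and Nop2, an rRNA methyltransferase, are shown for an ETS site and an E-box. Capitals mark every match of any of the motifs. The Nop16 stretch is chr13:54590075-54590324 on the minus strand, Dkc1 is chrX:75095604-75095853 on the plus strand, Gar1 is chr3:129831397-129831646 on the minus strand and Nop2 is chr6:125131633-125131882 on the plus strand.
Nop16: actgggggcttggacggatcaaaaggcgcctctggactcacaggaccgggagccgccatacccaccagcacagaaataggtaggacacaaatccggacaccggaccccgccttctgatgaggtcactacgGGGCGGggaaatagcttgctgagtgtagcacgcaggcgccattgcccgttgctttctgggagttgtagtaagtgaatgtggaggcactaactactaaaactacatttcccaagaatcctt
Dkc1: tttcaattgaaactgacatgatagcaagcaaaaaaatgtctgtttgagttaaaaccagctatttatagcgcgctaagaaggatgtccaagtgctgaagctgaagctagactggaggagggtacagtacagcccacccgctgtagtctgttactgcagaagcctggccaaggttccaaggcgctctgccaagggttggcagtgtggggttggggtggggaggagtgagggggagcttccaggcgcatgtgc
Gar1: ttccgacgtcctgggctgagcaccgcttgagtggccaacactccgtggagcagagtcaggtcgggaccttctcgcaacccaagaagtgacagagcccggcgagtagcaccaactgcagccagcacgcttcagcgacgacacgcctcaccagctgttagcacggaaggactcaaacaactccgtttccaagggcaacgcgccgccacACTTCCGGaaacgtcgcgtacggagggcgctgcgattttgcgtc
Nop2: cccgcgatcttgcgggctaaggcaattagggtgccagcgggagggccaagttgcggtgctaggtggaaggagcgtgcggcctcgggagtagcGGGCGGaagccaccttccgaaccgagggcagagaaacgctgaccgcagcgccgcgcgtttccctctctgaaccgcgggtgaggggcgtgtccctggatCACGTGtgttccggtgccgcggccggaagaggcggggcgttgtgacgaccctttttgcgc
In Nop16 the only match was a GC box whose first base lay 120 bases before the start. Dkc1 had none, Gar1 had an ETS site starting 44 bases before its start, and Nop2 had its E-box 60 and a GC box 158 bases before its start. A GC box was in the window of 23 of the 30 factors (76.7%), against 49.2% of 17492 protein-coding genes. ETS sites were in 6 of 30 (20%), against 5.69% of those genes. An E-box was in 4 of 30 (13.3%), namely Mybbp1a, Nop2, Pes1 and Wdr43, against 8.91%. Among 59 other ribosome biogenesis factors the shares were 62.7% for the GC box, 33.9% for the ETS site and 25.4% for the E-box. The windows of the factors had a median GC content of 59.3%, against 56.3%. The NRF1 site was in 0 of 30, against 1.47%. No window of any gene held the ideal DR4 element, so this search says nothing of that receptor here. The 4 genes with an E-box had log2 ratios from -0.25 to 0.15, inside the range of the other 26, -0.38 to 1.68. The 6 with an ETS site had ratios from -0.33 to 0.10. Of the 23 with a GC box 18 were below 1, with a median log2 ratio of -0.16. Of the 7 without a GC box 3 were, with a median of 0.015. The like share over all genes with a GC box is not given here, and a link between motif and ratio was not tested.

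The box C/D snoRNP core was lower by its brightest probe sets, with a median log2 ratio of -0.28 over 3 genes. Nop58, a scaffold protein of the particle, read 18299 under DMSO and 14579 under the ligands, 1.26-fold lower. Nop56, its paralogous partner, had 36892 and 30318, 1.22-fold lower, but its second probe set was at -0.04 on the log2 scale. Fbl, fibrillarin, the methyltransferase itself, had 60371 and 60197, a log2 ratio of -0.004. Only Nop58 lay outside the all-gene probe set SD, and it had a single probe set.

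In the box H/ACA snoRNP core, Dkc1 had the lowest ratio of all 34 factors. Dkc1, dyskerin, the pseudouridine synthase of the particle, had signals of 13612 and 10443, 1.30-fold lower, and its 3 probe sets all pointed down, from -0.46 to -0.26 on the log2 scale. Gar1, a glycine- and arginine-rich partner, had 19570 and 17040, 1.15-fold lower. Nhp2, an RNA-binding subunit, had 76015 and 73375, a log2 ratio of -0.05, with a second probe set at -0.33. Nop10, the smallest subunit, had 69835 and 70573, and both its probe sets were within 0.02 of 0. Dkc1 was thus the only subunit beyond the all-gene probe set SD by its brightest probe set.

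The nucleolar scaffold and chaperone proteins stayed close to level, with a median log2 ratio of -0.05 over 5 genes. Npm1, nucleophosmin, which forms the outer layer of the nucleolus, had signals of 168973 and 167797, and its second probe set had the other sign, at 0.05. Ncl, nucleolin, an RNA-binding protein that aids rRNA transcription and folding, had 106910 and 103530, and its 4 probe sets above the floor ran from -0.22 to -0.04. Nolc1, which chaperones snoRNPs, had 25573 and 25454.5, and its 3 probe sets ran from -0.20 to 0.09. The lower members were Gnl3, nucleostemin, a GTP-binding protein of proliferating cells, at 31956 and 26421 (1.21-fold lower), and Mybbp1a, a MYB-binding protein of the nucleolus, at 35855 and 30904 (1.16-fold lower). All 5 ratios were below 1 and inside the all-gene probe set SD. After centring, Npm1 and Nolc1 had positive log2 ratios of 0.017 and 0.020, and Ncl stayed at -0.020.

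Small subunit factors were mixed, with 5 of 8 below 1 and a median log2 ratio of -0.17. Nop14, a component of the processome that cuts the precursor for 18S rRNA, had signals of 9386 and 7608, 1.23-fold lower, and was the only one outside the all-gene probe set SD. Wdr75 and Wdr43, subunits that load early on the precursor, had 10306 and 8510 (1.21-fold lower) and 19473 and 16375 (1.19-fold lower). Their second probe sets were lower as well, at -0.23 for Wdr75 and -0.61 for Wdr43. Ddx10, a DEAD-box helicase, had 6772 and 5923, and Rrp12, which takes part in export of the subunits, had 2365 and 2143. The 3 genes above 1 were Rrp9, a U3 snoRNP protein (5004 and 5458), Bysl, bystin, of late 40S maturation (8316 and 8515), and Noc4l, the binding partner of Nop14 (9989 and 10177). The 4 probe sets of Noc4l disagreed, running from -0.65 to 0.03 on the log2 scale, and their mean was -0.30.

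Large subunit factors other than Nop16 lay between 1.26-fold lower and 1.11-fold higher. Noc2l, which forms a complex on early 60S particles, had signals of 9281 and 7360, 1.26-fold lower, while its weaker probe set was at 0.14 on the log2 scale. Ddx18, a DEAD-box helicase, had 17000 and 13859, 1.23-fold lower, and its second probe set repeated this at -0.33, while a further, weak one was at 0.37. Nip7, a 60S assembly factor, had 21489 and 18330, with its second probe set also lower, at -0.45. Noc3l, a partner of Noc2l in related complexes, had 2513 and 2241, Nop2 had 13197 and 12251, and Ppan, a 60S factor, had 9289 and 9930. The second probe set of Noc3l read below the floor on the DMSO array and was at least 1.38-fold higher on the other.

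The PeBoW complex, in which Pes1, Bop1 and Wdr12 act together on the large subunit, had no shared direction. Pes1, pescadillo, had signals of 20961 and 23300, 1.11-fold higher, and its other probe set agreed in sign at 0.18. Bop1 had 12144 and 10796, 1.12-fold lower, with a weak probe set at 0.08. Wdr12 had 15695 and 15631 by its brightest probe set and 1232 and 848 by the second, a log2 ratio of -0.54. The brightest probe sets of all 3 lay inside the all-gene probe set SD.

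The RNA polymerase I subunits showed no shared direction. Polr1b, the second largest subunit, had signals of 993 and 1335, 1.35-fold higher, the highest ratio after Nop16, from a single probe set. Polr1a, the largest subunit, had 6740 and 6720, and its 3 probe sets above the floor ran from -0.14 to -0.004. Polr1c, shared with RNA polymerase III, had 20561 and 19317, 1.06-fold lower. Ddx21, a helicase that associates with rRNA transcription, had 20973 and 21814 by its brightest probe set, while the second, at 12196 and 9691, was 1.26-fold lower. Only Polr1b lay outside the all-gene probe set SD.

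Probe sets of the same factor were compared within the arrays. Of 71 probe sets, 65 were above the floor on both arrays, 2 on 1 array and 4 on neither. Of the 65, 47 were lower and 18 higher with the ligands, with a median log2 ratio of -0.11. These 65 include the brightest probe sets of all 34 factors, counted above, so they are no separate check of the lean. In 23 factors with a pair of such probe sets, 13 pairs were both lower, 3 both higher and 7 of opposite sign. The SD of 0.16 quoted above for the factors comes from these pairs. The same shares over all probe sets and all pairs on the arrays are not given here. By their brightest probe sets, 53.8% of all measured genes had a ratio below 1. For 9 factors there was only 1 probe set, among them Nop58, Nop14 and Polr1b.

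**Figure D3:**
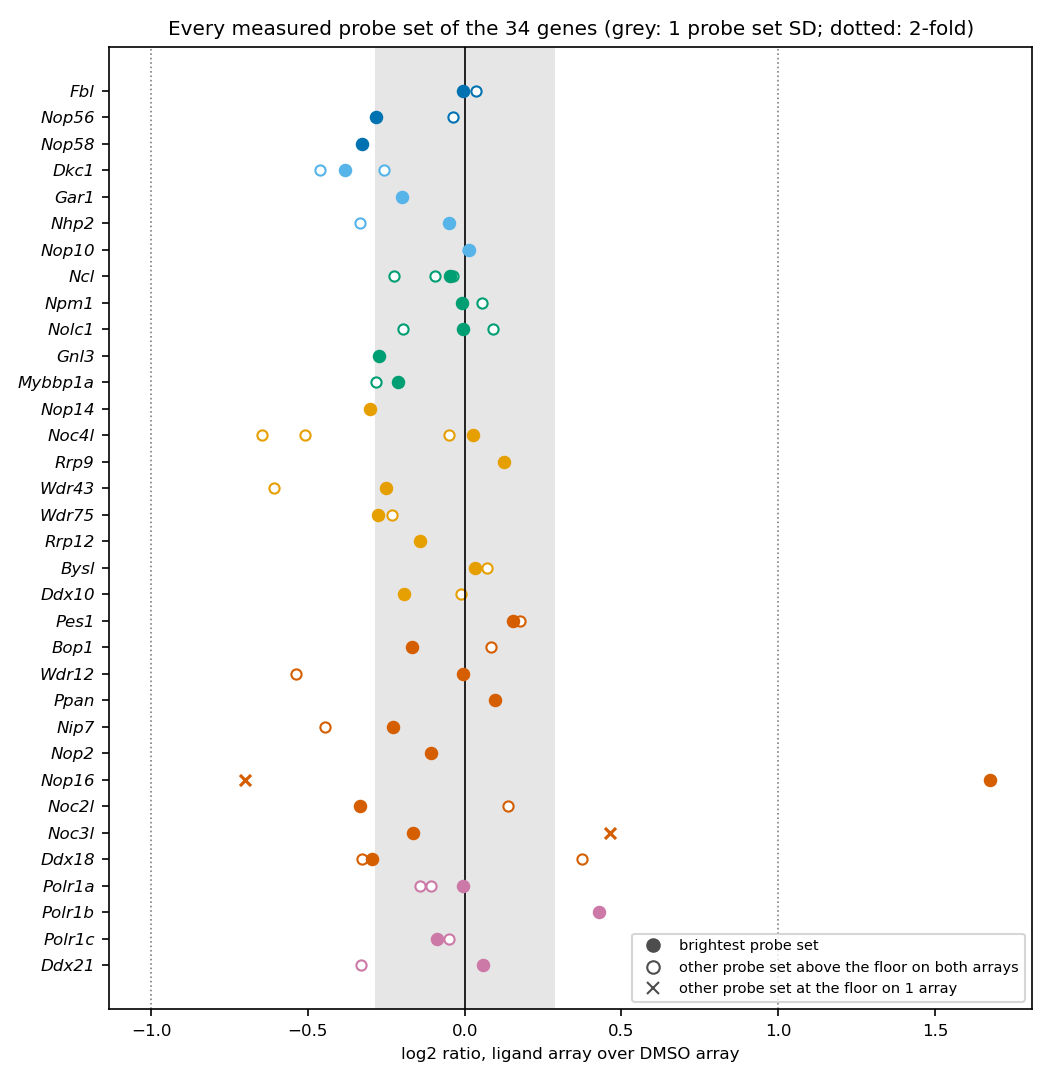
Log2 ratio of ligands over DMSO (x axis) for each measured probe set of the 34 genes (y axis); filled points are the brightest probe set of a gene, open points its other probe sets, crosses probe sets at the floor on 1 array, colours the roles, the grey band 1 probe set SD (0.28) to either side of 0 and dotted lines 2-fold. Most filled points lie in the left part of the band, and Nop16 is the only one past a dotted line.

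Of the ribosome biogenesis factors beyond the 34, 52 of 72 measured genes were below 1, or 48 of 72 after centring, and the median log2 ratio was -0.14. Of these 72, 21 were lower and 3 higher by more than the probe set SD of all genes. Surf6, a nucleolar protein that binds nucleic acids, was the lowest, at 5423 and 2812 (1.93-fold lower, single probe set), and Nol6, a nucleolar protein of the processome, the highest, at 1454 and 2233 (1.54-fold higher). For Nol6 another probe set was at 0.05. snoRNP assembly factors (7 of 9 below 1, median -0.15) and snoRNA host genes (9 of 12 below 1, median -0.11) had no gene 1.5-fold apart. Neither did RNA polymerase III subunits (9 of 13 below 1, median -0.15) or nucleotide synthesis genes (19 of 23 below 1, median -0.22). These ratios are of the brightest probe sets, and other probe sets reached further. Over all probe sets above the floor, log2 ratios of nucleotide synthesis genes ran from -2.15 (Shmt2) to 0.35 (Paics). Those of the other biogenesis factors ran from -1.01 (Utp14a) to 1.06 (Gnl2). Among other RNA polymerase I subunits and factors for ribosomal DNA, 6 of 12 were below 1. Rrn3, the initiation factor that brings polymerase I to its promoter, had 5548 and 3349, 1.66-fold lower from a single probe set. Ubtf, which binds the ribosomal DNA promoter, had 5968 and 7881, a log2 ratio of 0.40, and its other probe set was at 0.62.

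Cytosolic ribosomal proteins, the structural parts that these factors assemble, lay on the other side, with 38 of 43 measured genes above 1 and a median log2 ratio of 0.08. Under quantile normalization this was 27 of 43 and 0.018, and after centring 41 of 43 and 0.11, so the lean upward was small and depended on the scaling. Other very bright genes had ratios of like size. At or above a mean signal of 163011, the median of the ribosomal proteins, 20 of 22 ribosomal protein genes and 5 of 8 other genes were above 1, with median log2 ratios of 0.07 and 0.05. The part of signal level in the lean was not tested. By brightest probe sets, Rpl39 was the only one at least 1.5-fold apart, at 1585 and 2653 (1.67-fold higher). Its signals were far under the median of the list. Over all probe sets above the floor, log2 ratios of these genes ran from -0.44 (Rpl41) to 0.93 (Rps10). Of the 79 ribosomal protein genes listed, 44 had a probe set of 1 symbol, and members of such families share sequence with pseudogenes. Mitochondrial ribosomal proteins showed no lean, with 38 of 74 below 1 and a median of -0.003. Mrpl20 was the only one 1.5-fold apart by its brightest probe set, at 12985 and 19680 (1.52-fold higher). All mitochondrial probe sets above the floor ran from -0.67 (Mrpl27) to 0.68 (Mrps5) on the log2 scale.

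Among the MYC network, Myc itself was weak, reading 379 under DMSO and 82.3, less than the floor, under the ligands. That is at least 1.37-fold lower. Mycn, its paralogue, had 193135 and 203503 and a log2 ratio of 0.08, with 3 probe sets from 0.02 to 0.18. Max, the partner all MYC proteins need, had 5114 and 8331 (1.63-fold higher, single probe set), and Mxd4, which competes with MYC for Max, had 1620 and 2871 (1.77-fold higher, and another probe set had a log2 ratio of 0.78). Other network genes measured were Mxd3 (801 and 736), Mga (3654 and 3416), Mxd1 (571 and 540) and Mxi1 (17880 and 17530). Also measured were Mlx (7572 and 7536), Mnt (5860 and 5967) and Mlxip (4586 and 4709). All of these were within 1.09-fold by their brightest probe sets. Their other probe sets above the floor ran from -0.40 for Mga to 0.42 for Mxi1 on the log2 scale. Mycl was below the floor on both arrays.

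**Figure D4:**
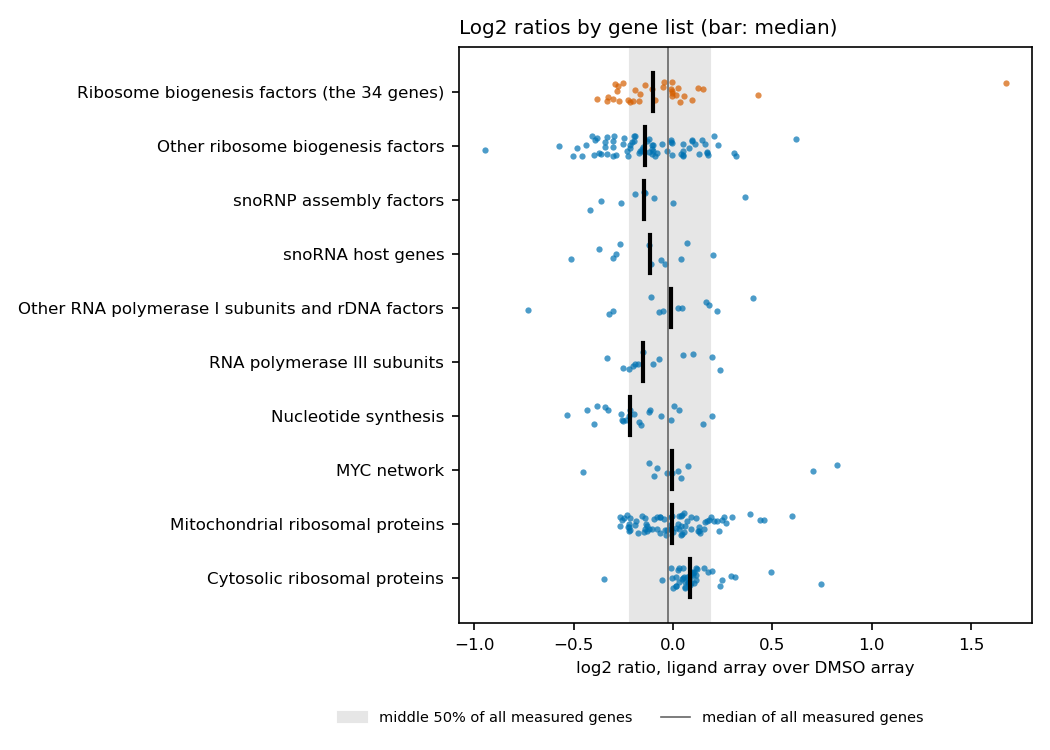
Log2 ratio of ligands over DMSO (x axis) for each measured gene of the 34 factors, orange, and of 9 other lists, blue, with a black bar at each median and a grey band and line for the middle 50% and the median of all measured genes. The factors and the other biogenesis factors centre at -0.10 and -0.14 and the cytosolic ribosomal proteins at 0.08, and all 3 medians lie inside the grey band.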

How the data were processed

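Expression was measured on 2 Affymetrix mouse arrays. The deposited intensities are linear MAS5 signals, per the submitters' processing notes, with 1 value for each probe set. MAS5 scales arrays to the same trimmed mean, so the ratios cannot show a change of all RNA in a cell. Its version and a genome build are not given in the sources used here.

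Of 45101 probe sets, 34945 had 1 gene symbol on the platform's annotation and 932 had several. Symbols were updated by gene identifier to GRCm38.p6 for 34741. Signals were floored at the 50th percentile (276) of non-control probe sets, and log2 ratios of ligands over DMSO were taken from the probe set of highest mean log2 signal. With 1 array per group no p-value was computed. Genes were called at 2-fold and, more loosely, at 1.5-fold. The procedure was tested on simulated data.

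All 34 factors were named; of other lists, up to 3 genes in each direction at least 1.5-fold apart, and the MYC network whole. Nop16's neighbours, Ubtf, the set of very bright genes and the promoters shown were chosen after their values were seen. So were the genes of other lists named for the ends of a range over all probe sets. The members and lists were chosen with earlier results of these data known. Protein features, part of the design, were not analysed here. Python 3.11.15, numpy 2.4.6, pandas 2.3.3 and matplotlib 3.10.9 were used.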

Additional observations from a re-analysis of the deposited data

Results flagged for a closer look

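The array carries 3 control probe sets for 18S rRNA, which lie outside the gene comparison. All 3 had a higher signal with the ligands, with log2 ratios of 0.50 for the 3′ probe set (2005 and 2834), 0.47 for the 5′ probe set (1663 and 2305) and 0.68 for the middle one (1381 and 2207). Control probe sets for Actb had log2 ratios of 0.05 to 0.10 and those for Gapdh of 0.01 to 0.08. Controls weaker than Actb and Gapdh moved more. The 3 probe sets for Tfrc, the transferrin receptor, at signals from 2377 to 8468, ran from -0.05 to 0.38. The 4 for pyruvate carboxylase, at signals from 209 to 624, ran from -0.40 to 0.74. Of these controls only pyruvate carboxylase, near the floor and of mixed sign, had log2 ratios as large as the 18S values. The 3′ to 5′ signal ratio of Actb was 1.18 with DMSO and 1.15 with the ligands, and that of Gapdh was 0.853 and then 0.826. How much 18S rRNA entered the labelling was not measured, and its part in the ratios of the biogenesis factors was not tested.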

How the results depend on the processing

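No alternative changed the direction of the factors' median log2 ratio, which ran from -0.14 with quantile normalization to -0.07 with centring, over 8 alternatives. The number of factors at least 2-fold higher, 1, was 0 with averaged probe sets, and so was the number at least 1.5-fold higher, because the weak probe set of Nop16 then counted equally. The number of factors at least 1.5-fold or 2-fold lower was 0 throughout. Of 268 values of single factors under the alternatives, 264 moved by less than the probe set SD. The 4 that moved more were Nop16 (0.49), Noc4l (-0.30) and Noc3l (0.15) with averaged probe sets and Ddx21 (-0.33) without probe sets ending in _s_at, _x_at or _a_at. Alternatives for the other lists were added after the data were seen. The median of cytosolic ribosomal proteins was 0.018 with quantile normalization, and that of the MYC network, -0.007, was 0.087 with averaged probe sets; the cause was not tested. No paired analysis was possible because each group had 1 array. Probe sets near the floor limit what could be seen for Myc and the second probe sets of Nop16 and Noc3l.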
